A study of Homo sapiens with 6 samples.

Results

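Kinesins are motor proteins that use ATP to walk along microtubules, or in a few families to take their ends apart. The 46 genes described here are the kinesin motor and kinesin light chain genes among the 61860 genes of the deposited table. They were chosen by symbol alone: KIF or KLC with a number and, where present, a letter, and KIFC1 to KIFC3, with antisense RNAs and pseudogenes left out. The rule itself used no measured value, though it and the roles below were set with earlier results of these data known. By their known roles they were sorted into 20 kinesins of axonal transport, 14 mitotic kinesins and 12 ciliary and other kinesins.

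The libraries came from SH-SY5Y, an established human neuroblastoma line that keeps dividing in culture. The cells of both groups had been differentiated with retinoic acid in low serum and made insulin resistant (IR) by D-glucose at 30 mM together with insulin at 100 nM over 24 h. The 3 IR control libraries had no further treatment, and the 3 IR+Oligonol libraries had Oligonol, a polyphenol preparation made from lychee fruit, at 500 ng/mL for 24 h. Both groups therefore carried the insulin and glucose treatment, and the comparison is of Oligonol within it. The labels name no vehicle, give no retinoic acid dose and do not say whether the replicates came from separate cultures. The p-values can speak only for the variation among these samples, which could be of technical origin.

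In neurons, kinesins carry vesicles, mitochondria, synaptic vesicle precursors and RNA outward along the axon, since axonal microtubules point their plus ends away from the cell body. Kinesin-1 is built of a heavy chain with the motor (KIF5A, KIF5B or KIF5C) and a light chain that binds cargo (KLC1 to KLC4). In dividing cells other kinesins separate the spindle poles, move chromosomes, control microtubule length and build the midzone at which the cell is cut apart. Neurons that no longer divide keep little of that mitotic set, while neuroblastoma cells that still divide use both.

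Total estimated counts were 22738203, 25328857 and 32209583 in the IR control libraries and 19457923, 20912945 and 20100206 in the IR+Oligonol libraries. Levels are given as CPM (a gene's count for each 1e6 counts of its library) after TMM scaling, a scaling that assumes that most genes do not change. The deposited values behaved as abundances per transcript length, so that levels of different genes can be set side by side. The kinesins together rested on 27674 to 33948 read equivalents per library. The libraries also differed in base composition: the mean GC content of protein-coding transcripts, weighted by counts, was 55.0, 55.1 and 55.1% in the IR control libraries and 51.5, 53.4 and 51.8% with Oligonol. Of the neuronal and noradrenergic markers 13 of 14 were tested (TH, the first enzyme of noradrenaline synthesis, was near 0). Of these 2 were higher (MAP2 and ELAVL4) and 1 lower (TUBB3), 15.4% and 7.69% against 26.0% and 23.0% of all tested genes. The summed level of the 14 was 303.6 to 351.7 CPM in the controls and 199.8 to 266.9 CPM with Oligonol. Markers of other cells were low: 6 glial markers summed to 1.20 to 2.10 CPM, 5 myeloid markers to 0.594 to 1.55 CPM, and the myeloid genes AIF1 and ITGAM stood at 0 in the controls. Of both lists only GFAP and CD68 were tested, and neither was called. The mesenchymal markers of neuroblastoma, of which 7 of 11 were tested, summed to 63.0 to 85.6 CPM in the controls and 55.7 to 59.0 CPM with Oligonol. Of these CALD1 was higher and TAGLN lower (14.3% each, against the same 26.0% and 23.0%). In bulk RNA, fewer cells of a type and less RNA per cell cannot be told apart.

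Kinesin transcripts moved in both directions with Oligonol, in every role. Of the 37 kinesins tested, 16 were higher, 10 were lower and 11 were not called (quasi-likelihood test of edgeR, Benjamini-Hochberg adjusted p under 0.05 over 16574 genes). The background was high: 26.0% of all tested genes were called higher and 23.0% lower. Among the axonal transport kinesins 17 were tested, of which 8 were higher (KIF1B, KIF3A, KIF3B, KIF5B, KIF5C, KIF13A, KIF16B and KIF21A) and 5 lower (KIF1A, KIF1C, KIFC2, KLC2 and KLC4). Among the mitotic kinesins 12 were tested, of which 6 were higher (KIF11, KIF14, KIF15, KIF18A, KIF20B and KIF23) and 2 lower (KIF22 and KIFC1). Among the ciliary and other kinesins 8 were tested, of which 2 were higher (KIF2A and KIF27) and 3 lower (KIF7, KIF26A and KIFC3). The median log2 fold change was 0.29 for the axonal transport, 0.56 for the mitotic and -0.07 for the ciliary and other kinesins, against 0.15 for all tested genes. The difference between the roles was not tested. In 31 of the 37 tested kinesins the 3 libraries of a group lay wholly above or below those of the other. These 31 included all 26 called kinesins. Of all tested genes 33.8% showed this separation upward and 28.8% downward.

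**Figure D1:**
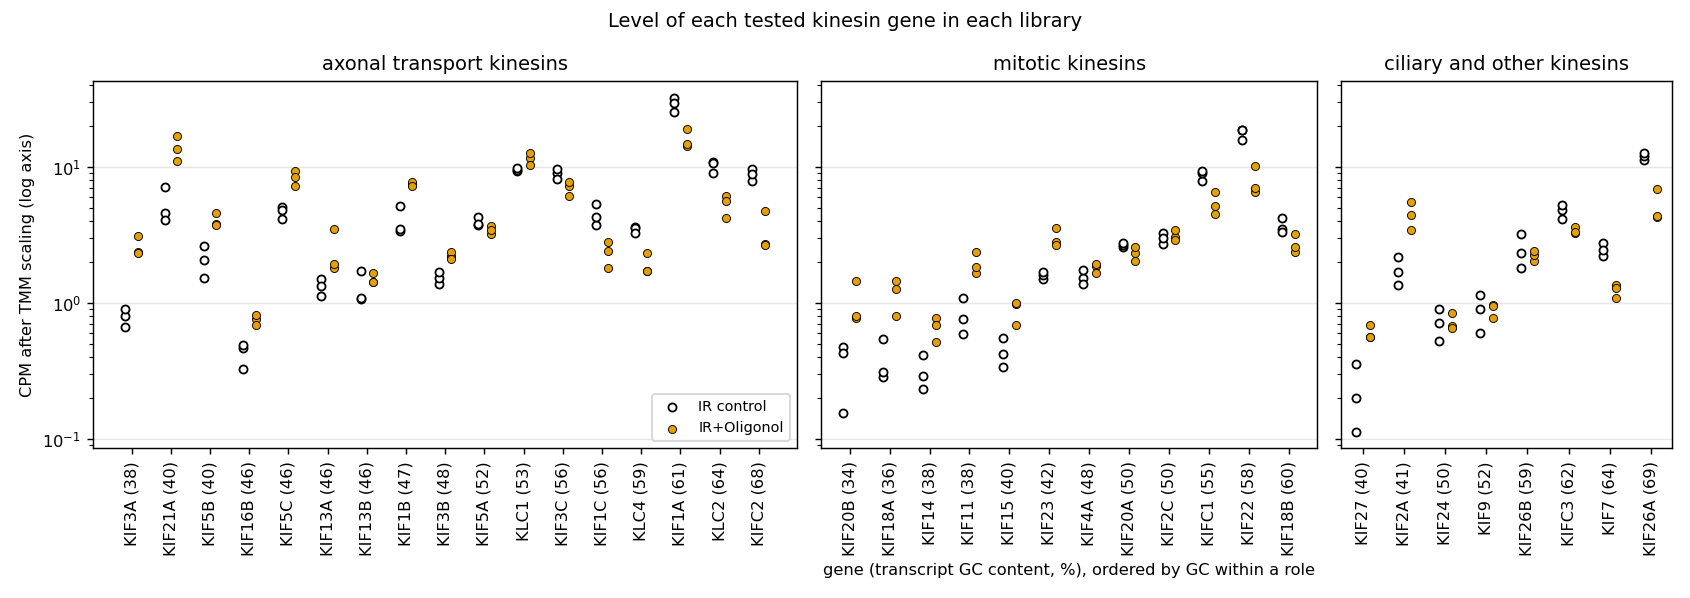
CPM after TMM scaling (log axis) of each tested kinesin in each of the 3 IR control (open) and 3 IR+Oligonol (filled) libraries, ordered within a role by transcript GC content. In each role the kinesins called higher stand on the left, where GC is low, and those called lower on the right, where GC is high. The lower direction is relative to TMM scaling.

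These counts describe the kinesins that could be tested, not the family. The filter on low counts kept 10 kinesins through the IR+Oligonol libraries alone (KIF3A, KIF9, KIF11, KIF14, KIF15, KIF16B, KIF18A, KIF20B, KIF24 and KIF27). Of these 8 were called higher, and the filter kept 0 through the controls alone. KIF9 and KIF24, at log2 fold changes of 0.01 and -0.01, were not called. The filter was applied on library totals, before TMM scaling, and the share of all genes kept through 1 group alone was not counted. When 10 counts or more were asked of each library, 30 kinesins were tested and 11 were higher and 8 lower, against 32.0% and 27.9% of all 11178 genes tested so. Of the mitotic kinesins 2 were then higher and 1 lower, and their median was 0.18. The counts also rested on single libraries: without IR control 3 the same test called 1 kinesin higher and 0 lower. The calls over all tested genes fell with them, to 2.90% higher and 0.996% lower. It called 8 kinesins higher and 9 lower without IR control 1 (15.5% and 15.1% of all genes tested so), and 6 higher and 4 lower without IR control 2 (8.65% and 3.88%). Of the treated libraries, it called 4 higher and 4 lower without IR+Oligonol 1 (9.47% and 4.21% of all genes), 11 and 12 without IR+Oligonol 2 (22.4% and 24.1%), and 3 and 2 without IR+Oligonol 3 (7.83% and 2.85%). The downward direction is relative to TMM scaling: on library totals alone, where the median of all genes moved from 0.15 to 1.53, 30 kinesins were called higher and 0 lower, against 68.1% and 0.223% of all genes.

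Transcript GC content ordered the kinesins in all 3 roles. Across the 37 tested kinesins, Spearman's rho between GC content and the log2 fold change was -0.950, and it was -0.939 over the 17 axonal transport, -0.958 over the 12 mitotic and -0.976 over the 8 ciliary and other kinesins. Over 11719 protein-coding genes the same rho was -0.851. These correlations are across genes of the same 6 libraries, which are not independent replicates. With bounds at 48 and 54% GC, chosen after the values were seen, 16 of the 18 tested kinesins under 48% were higher and 0 lower, against 59.0% and 0.553% of protein-coding genes in that class. Of these 16, 8 had passed the filter through the IR+Oligonol libraries alone. Of 6 kinesins between the bounds 0 were called, against 11.1% of protein-coding genes higher and 8.92% lower there. Over 54%, 10 of 13 kinesins were lower and 0 higher, against 66.8% and 0.628%. Among the 27 kinesins that passed the filter in both groups, 8 of 10 under 48% were higher, 0 of 4 between the bounds were called and 10 of 13 over 54% were lower.

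When each library's trend of counts against GC was removed, no kinesin was called in either direction, against a background of 2.89% of 16200 genes higher and 2.56% lower. The smallest adjusted p in edgeR's test was then 0.0569 (KIF22). An unadjusted p under 0.05 was found for 11 of the 37 kinesins, against 4448 of the 16200 genes. The removal left some order by GC content among the kinesins. Spearman's rho was then -0.321 over all 37, -0.569 over the axonal transport, -0.524 over the mitotic and -0.310 over the other kinesins. GC content was not the only order: with the gene's length on the chromosome, rho over all 37 was 0.487 under TMM scaling. After the removal it was 0.567, and 0.534, 0.531 and 0.929 over the roles in the same order. For gene length, rho over all genes was not computed. The medians became 0.15 for the axonal transport, 0.01 for the mitotic and 0.25 for the ciliary and other kinesins. With the GC content of the longest transcript in place of the median over transcripts, an alternative added after the data were seen, KLC1 (log2 fold change 1.07, adjusted p = 0.0301) and KIF3A (0.76, adjusted p = 0.0426) were higher, against 4.59% of all genes higher and 4.33% lower. Whether the difference in composition between the groups arose in the cells or in library preparation was not tested.

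**Figure D2:**
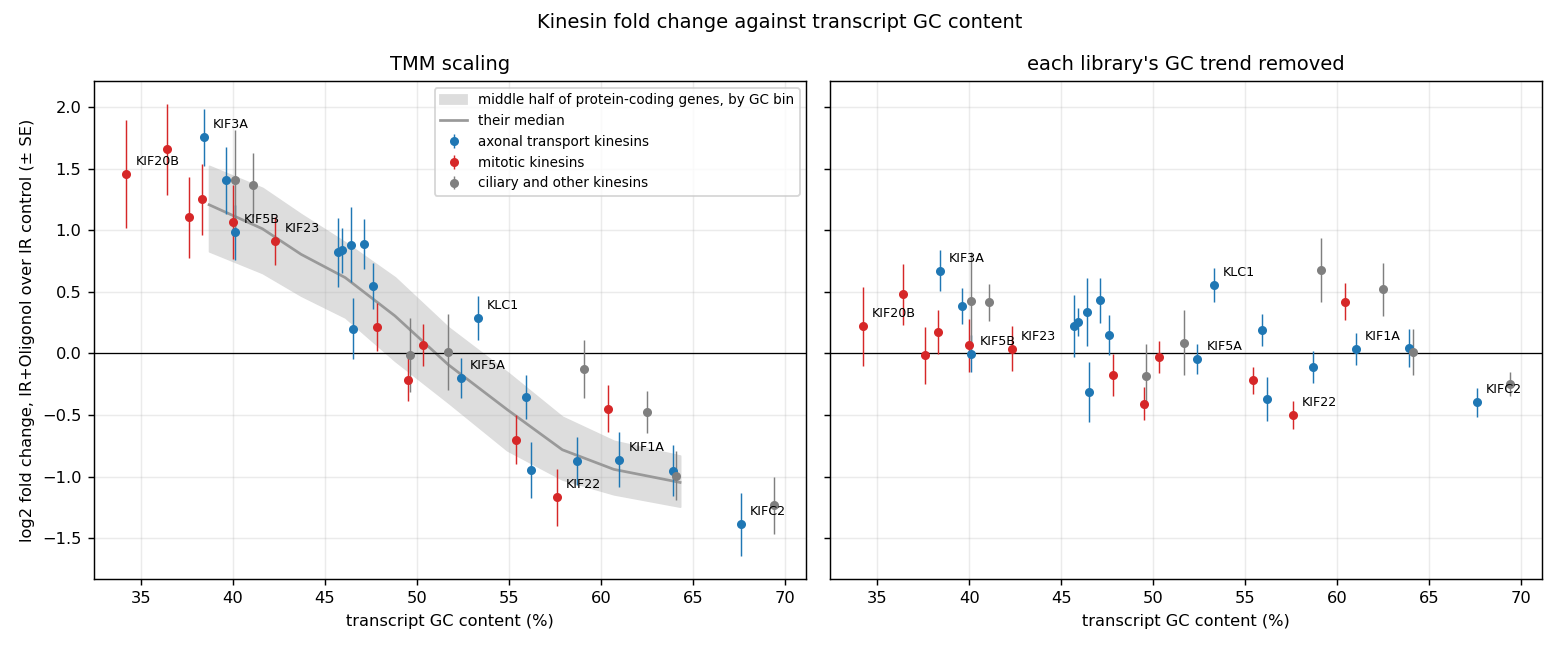
Log2 fold change (± SE) of each tested kinesin against its transcript GC content (%), coloured by role, with TMM scaling (left) and after removal of each library's GC trend (right). The grey band runs from the lower to the upper quartile of protein-coding genes in bins of GC. On the left the kinesins fall from 1.75 (KIF3A) to -1.39 (KIFC2) with rising GC, and on the right none passed the threshold.

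Of all kinesins, the motor of synaptic vesicle precursors, KIF1A (chr2:240713761-240824293 in GRCh38.p13), had the highest level. Its 25.3, 32.5 and 29.9 CPM in the 3 IR control libraries and 14.4, 19.2 and 14.7 CPM in the 3 IR+Oligonol libraries did not overlap (log2 fold change -0.86 ± 0.22 SE, adjusted p = 0.0171). KIF1B (chr1:10210570-10381603), its close relative, which carries mitochondria and synaptic vesicle precursors, went the other way. KIF1B stood at 5.14, 3.41 and 3.52 CPM in the controls and at 7.39, 7.75 and 7.25 CPM with Oligonol, with no overlap (0.89 ± 0.20 SE, adjusted p = 0.012). KIF1C, which carries dense-core vesicles and RNA, stood at 3.77, 4.32 and 5.33 CPM in the controls and 2.39, 2.82 and 1.79 CPM with Oligonol (-0.94 ± 0.23 SE, adjusted p = 0.0137). As with KIF1A, all 3 treated libraries lay below the controls. On library totals alone KIF1A and KIF1C were at 0.50 and 0.44, under that scaling's median of 1.53 for all genes. As shares of the counts of these 3 genes, which no scaling of libraries can change, KIF1A went from 77.3 ± 3.40% to 62.0 ± 2.45% (SD, n = 3), KIF1C from 11.8 ± 1.71% to 8.97 ± 1.25% and KIF1B from 10.9 ± 3.60% to 29 ± 2.60%. The groups did not overlap in any of these shares. After removal of the GC trend the log2 fold changes were 0.04 for KIF1A, 0.43 for KIF1B and -0.37 for KIF1C, with adjusted p of 0.876, 0.187 and 0.229.

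The difference in composition between KIF1B, which rose, and KIF1C, which fell, is visible in the coding sequence of the motor itself. The 96 bases around the P-loop, the loop that grips ATP, are printed from GENCODE 29 (GRCh38), in the coding sense, with the 24 bases of the P-loop codons in capitals. They lie in exon 3 of KIF1B (chr1:10258562-10258657, plus strand) and exon 5 of KIF1C (chr17:5001291-5001386, plus strand), exons being numbered in the transcript used.
KIF1B: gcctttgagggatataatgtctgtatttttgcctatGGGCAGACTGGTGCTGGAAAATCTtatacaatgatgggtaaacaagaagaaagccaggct
KIF1C: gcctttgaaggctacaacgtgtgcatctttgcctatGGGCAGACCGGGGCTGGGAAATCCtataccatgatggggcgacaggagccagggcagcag
GC content in this window was 41.7% in KIF1B and 58.3% in KIF1C. The 2 genes had the same base at 72 of 96 positions, and 17 of the 24 differences fell on the wobble base of a codon.

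Kinesin-2 is a motor of 2 different heavy chains, KIF3A with KIF3B or KIF3C, joined by the adaptor KIFAP3, and works in axons and in cilia. KIF3A (chr5:132692628-132737638) had the highest positive fold change of any kinesin: it stood at 0.803, 0.898 and 0.659 CPM in the controls and 3.12, 2.37 and 2.34 CPM with Oligonol (1.75 ± 0.23 SE, adjusted p = 0.0061). The lowest treated library had more than 2 times the level of the highest control. KIF3B was also higher, at 1.38, 1.51 and 1.69 CPM and 2.20, 2.35 and 2.09 CPM (0.55 ± 0.18 SE, adjusted p = 0.0393). KIF3C, the most abundant of the 3 and enriched in neurons, was not called, with 8.99, 8.18 and 9.65 CPM in the controls and 7.23, 7.71 and 6.08 CPM with Oligonol (-0.35 ± 0.18 SE, adjusted p = 0.133), although its groups did not overlap. In shares of the 3 genes' counts KIF3C went from 79.4 ± 1.88% to 59.1 ± 2.48%, KIF3A from 7.05 ± 1.49% to 22.0 ± 2.91% and KIF3B from 13.6 ± 1.10% to 18.8 ± 1.21% (SD, n = 3, no overlap). KIFAP3 was higher as well, from 1.10, 1.14 and 0.759 CPM to 2.38, 2.18 and 2.35 CPM (1.20 ± 0.22 SE, adjusted p = 0.00817), a gene named here after its values were seen. Both KIF3A and KIFAP3 passed the count filter only through the IR+Oligonol libraries, in which they were high. After removal of the GC trend KIF3A kept the larger value, 0.67 (adjusted p = 0.0643), with 0.15 for KIF3B and 0.19 for KIF3C.

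The P-loop windows of KIF3B (exon 2, chr20:32310027-32310122, plus strand) and KIF3C (exon 2, chr2:25981570-25981665, minus strand) show the same contrast between a member that rose and one that did not.
KIF3B: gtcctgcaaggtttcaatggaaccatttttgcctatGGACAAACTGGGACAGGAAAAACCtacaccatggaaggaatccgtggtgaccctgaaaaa
KIF3C: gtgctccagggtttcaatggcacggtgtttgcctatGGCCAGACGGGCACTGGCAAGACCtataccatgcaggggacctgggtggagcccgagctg
GC content was 45.8% in the KIF3B window and 61.5% in that of KIF3C. The windows had the same base at 67 of 96 positions, and 22 of the 29 differences were at the third codon position.

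**Figure D3:**
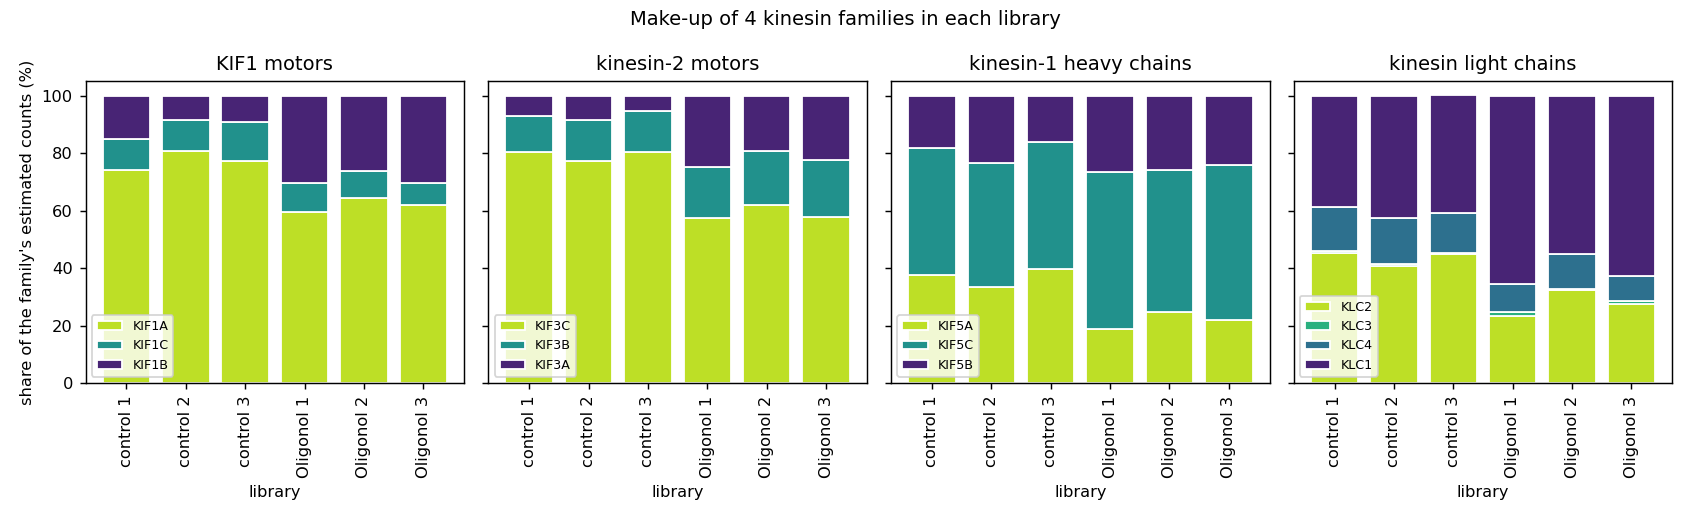
Share (%) of the estimated counts of a family taken by each member in each library, for the KIF1 motors, the kinesin-2 motors, the kinesin-1 heavy chains and the kinesin light chains. A share does not depend on how libraries are scaled. KIF1B, KIF3A, KIF5B, KIF5C and KLC1 took larger shares in each of the 3 IR+Oligonol libraries than in any IR control library.

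Among the kinesin-1 heavy chains, KIF5B, the form found in most tissues, and KIF5C, a neuronal form, were higher with Oligonol. KIF5B stood at 2.06, 2.60 and 1.53 CPM in the controls and 4.57, 3.79 and 3.74 CPM in the treated libraries (0.98 ± 0.23 SE, adjusted p = 0.0123). KIF5C stood at 5.05, 4.85 and 4.18 CPM in the controls and 9.40, 7.25 and 8.41 CPM with Oligonol (0.84 ± 0.18 SE, adjusted p = 0.0112). All treated libraries of both genes lay above all controls. KIF5A, the neuronal form mutated in a hereditary spastic paraplegia, was not called, with 4.27, 3.71 and 3.78 CPM and 3.21, 3.67 and 3.43 CPM (-0.20 ± 0.16 SE, adjusted p = 0.337). Within the heavy chains KIF5A's share went from 36.9 ± 3.30% to 21.9 ± 3.10%, KIF5B's from 19.2 ± 3.68% to 25.5 ± 1.33% and KIF5C's from 43.9 ± 0.503% to 52.7 ± 2.94% (SD, n = 3), with no overlap between the groups. KIF5C was the most abundant heavy chain in both groups. After removal of the GC trend the log2 fold change of KIF5B was 0.00 (adjusted p = 0.996), that of KIF5C 0.26 and that of KIF5A -0.04.

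The light chains, which link the heavy chains to cargo and hold the idle motor folded, did not move together. KLC1 (chr14:103561896-103714249), the main neuronal light chain, was not called at 9.37, 9.44 and 9.82 CPM in the controls and 11.7, 10.4 and 12.7 CPM with Oligonol (0.29 ± 0.17 SE, adjusted p = 0.201), though its groups did not overlap. KLC2 fell from 10.9, 9.09 and 10.7 CPM to 4.20, 6.18 and 5.60 CPM (-0.95 ± 0.20 SE, adjusted p = 0.0106). KLC4 fell from 3.64, 3.56 and 3.27 CPM to 1.72, 2.33 and 1.71 CPM (-0.87 ± 0.19 SE, adjusted p = 0.0114). On library totals alone KLC2 and KLC4 were at 0.40 and 0.47, both under that scaling's median of all genes. Of the light chain counts KLC1 took 40.7 ± 1.81% in the controls and 61.1 ± 5.49% with Oligonol, KLC2 43.7 ± 2.41% and 27.9 ± 4.5%, and KLC4 14.9 ± 1.16% and 10.1 ± 1.98% (SD, n = 3, no overlap). KLC3, a form of the testis, took at most 1.34% in any library and was not tested. KLC1 and KLC2 overlapped in the controls, and with Oligonol each KLC1 library exceeded each KLC2 library. KLC1 stood above the trend for its GC content of 53.3%: after removal of the trend it was at 0.56 (adjusted p = 0.0643).

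Of the other transport kinesins, KIF21A (chr12:39293228-39443390), a kinesin that restrains microtubule growth, rose from 4.61, 7.17 and 4.05 CPM to 16.8, 11.2 and 13.7 CPM (1.40 ± 0.27 SE, adjusted p = 0.00895). With Oligonol it was second in level among all kinesins and its values overlapped those of KIF1A. KIF16B, which moves early endosomes, was higher at a low level, 0.466, 0.323 and 0.486 CPM against 0.758, 0.685 and 0.809 CPM (0.82 ± 0.28 SE, adjusted p = 0.0408). KIFC2, a kinesin with its motor at the C-terminal end, had the largest negative fold change, from 7.88, 9.64 and 8.97 CPM to 2.72, 4.77 and 2.68 CPM (-1.39 ± 0.26 SE, adjusted p = 0.0084). Its value on library totals alone was -0.05. At 67.6% GC it was the most GC-rich of the tested transport kinesins, and after removal of the trend its value was -0.40 (adjusted p = 0.0877). KIF13A, a carrier of recycling endosomes, was higher (0.88 ± 0.31 SE, adjusted p = 0.0435), with 1.12 to 1.5 CPM in the controls and 1.80 to 3.52 CPM in the treated libraries. Its relative KIF13B was not called (0.20 ± 0.24 SE, adjusted p = 0.519), and the share of KIF13A among the 2 genes, 50.9 ± 7.35% and 60.4 ± 9.76%, overlapped between the groups. Summed over the 20 transport kinesins, the level was 96.8, 103.9 and 101.1 CPM in the controls and 97.6, 96.5 and 91.1 CPM with Oligonol, so that the groups overlapped in the total while 8 of its tested members rose and 5 fell.

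The mitotic kinesins that rose were of low level. KIF11 (chr10:92574105-92655395), which slides spindle poles apart and is the target of several anti-mitotic drugs, stood at 0.754, 1.08 and 0.589 CPM in the controls and 2.35, 1.65 and 1.85 CPM with Oligonol (1.25 ± 0.28 SE, adjusted p = 0.012). KIF15, which can share the work of KIF11, stood at 0.417, 0.549 and 0.337 CPM and 0.986, 0.689 and 1.00 CPM (1.07 ± 0.30 SE, adjusted p = 0.0216). KIF18A, which dampens chromosome movements at the metaphase plate, stood at 0.286, 0.545 and 0.311 CPM and 1.44, 0.796 and 1.26 CPM (1.66 ± 0.37 SE, adjusted p = 0.0116). In each of these 3 genes IR+Oligonol 2 was the lowest treated library. It was also the treated library nearest to the controls in mean GC content. KIF23, the motor of the centralspindlin complex at the midzone, rose from 1.49, 1.61 and 1.68 CPM to 2.79, 2.69 and 3.54 CPM (0.91 ± 0.19 SE, adjusted p = 0.0104). KIF14, a cytokinesis kinesin, stood at 0.288, 0.414 and 0.233 CPM in the controls and 0.774, 0.513 and 0.692 CPM with Oligonol (1.10 ± 0.33 SE, adjusted p = 0.0263). KIF20B, another kinesin of cytokinesis, stood at 0.474, 0.430 and 0.153 CPM and 1.44, 0.770 and 0.794 CPM (1.46 ± 0.44 SE, adjusted p = 0.0269). The groups did not overlap in any of these 6 genes, and KIF23 alone among them passed the count filter in the controls as well. After removal of the GC trend their log2 fold changes lay between -0.02 (KIF14) and 0.48 (KIF18A), and none was called.

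The 2 mitotic kinesins that fell were the 2 most abundant. KIF22 (chr16:29790727-29805385), a chromokinesin that pushes chromosome arms away from the poles, stood at 15.8, 18.7 and 18.7 CPM in the controls and 6.51, 10.2 and 7.07 CPM with Oligonol (-1.17 ± 0.23 SE, adjusted p = 0.00918). KIFC1 (chr6:33391823-33409896), a minus-end motor that holds spindle poles together, stood at 7.96, 9.03 and 9.31 CPM and 4.52, 6.55 and 5.19 CPM (-0.70 ± 0.20 SE, adjusted p = 0.0219). In both the treated libraries lay below the controls, with IR+Oligonol 2 the nearest to them, and on library totals alone the values were 0.18 and 0.66. KIF22 had the smallest adjusted p of any kinesin after removal of the GC trend (-0.50, adjusted p = 0.0569). KIF20A, the midzone motor that carries the chromosomal passenger complex, was not called, at 2.58, 2.69 and 2.77 CPM and 2.32, 2.04 and 2.58 CPM (-0.21 ± 0.17 SE, adjusted p = 0.335). KIF2C, a microtubule depolymerase at kinetochores, was not called and overlapped, at 2.73, 3.25 and 3.02 CPM and 3.06, 2.90 and 3.46 CPM (0.07 ± 0.17 SE, adjusted p = 0.753). KIF4A and KIF18B were not called either, at log2 fold changes of 0.21 ± 0.19 and -0.45 ± 0.19 SE.

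Summed over the 14 mitotic kinesins, the level was 38.6, 43.5 and 41.8 CPM in the controls and 30.4, 33.9 and 31.7 CPM with Oligonol, without overlap. The mitotic share of all kinesin CPM was 24.0, 25.1 and 24.9% in the controls and 20.7, 22.6 and 22.4% with Oligonol. KIF22 alone had means of 17.7 and 7.91 CPM, against 41.3 and 32.0 CPM for the sum of the 14. The lower sum therefore rested mainly on KIF22, while 6 mitotic kinesins were called higher and 2 lower. Within pairs of relatives the low-GC member gained: KIF18A took 9.42 ± 3.63% of the KIF18A and KIF18B counts in the controls and 30.2 ± 9.32% with Oligonol, and KIF20B took 11.5 ± 5.50% and 29.7 ± 7.62% of the KIF20A and KIF20B counts (SD, n = 3, no overlap).

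The P-loop windows of KIF11, which rose, and KIFC1, which fell, show the contrast among mitotic motors. The KIF11 codons lie in exon 4 and its window spans an intron (chr10:92606685-92607222, plus strand), and the KIFC1 window lies in exon 7 (chr6:33405287-33405382, plus strand).
KIF11: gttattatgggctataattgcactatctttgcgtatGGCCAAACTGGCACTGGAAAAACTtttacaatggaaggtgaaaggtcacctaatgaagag
KIFC1: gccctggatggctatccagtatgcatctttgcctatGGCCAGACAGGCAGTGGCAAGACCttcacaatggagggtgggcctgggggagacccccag
GC content was 39.6% in the KIF11 window and 60.4% in that of KIFC1, with the same base at 54 of 96 positions. The pairs of windows printed here are examples, chosen with the values known. Over the 30 tested kinesins with such a window, its GC content ran from 36.5 to 64.6%. Spearman's rho of the window with the log2 fold change was -0.799. Over whole coding sequences of the 37 tested kinesins, GC content ran from 34.7 to 70.6% and its Spearman's rho with the log2 fold change was -0.937. For GC at the third codon position, from 28.6 to 83.0%, rho was -0.893. For the GC content of the promoter, defined as 250 bases before to 50 after the start site in RefSeq (GRCh38.p14), rho was -0.06 over the 29 tested kinesins with an entry.

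**Figure D4:**
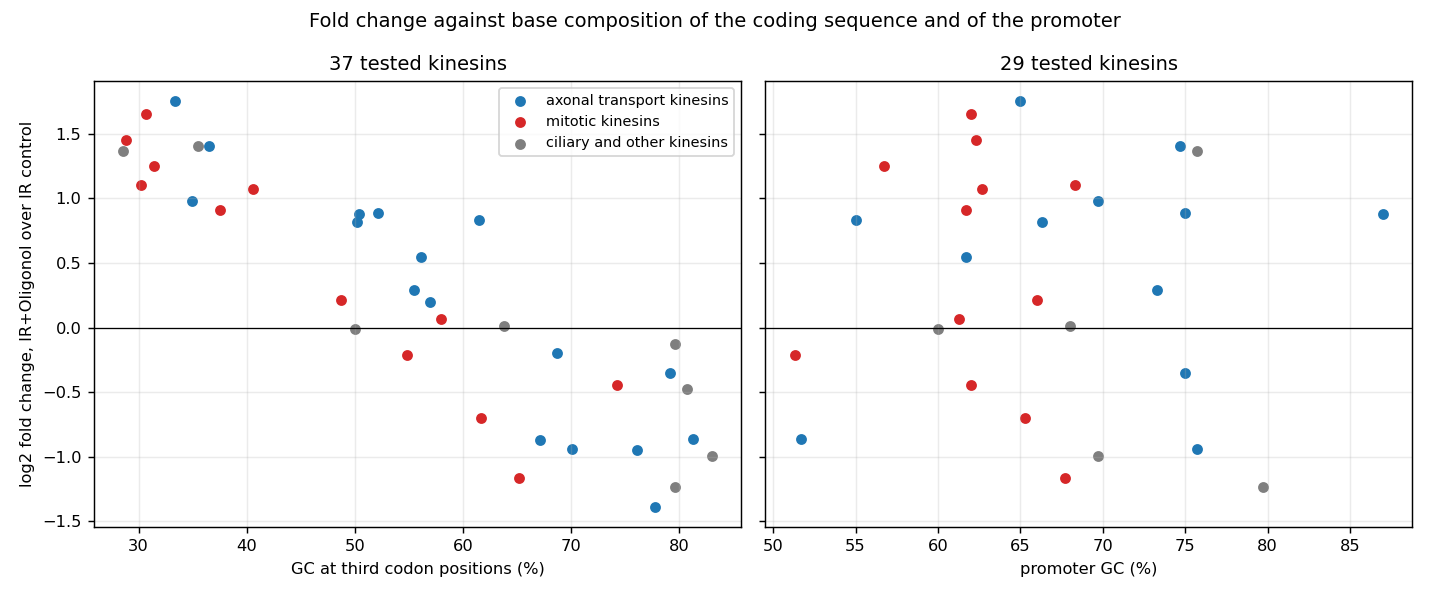
Log2 fold change of tested kinesins against the GC content (%) at the third codon position (left, 37 genes) and of the promoter (right, 29 genes), coloured by role. The points fall along a line from upper left to lower right for the coding sequence (rho -0.893) and are scattered for the promoter (rho -0.06).

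Promoter motifs differed in number between the roles. The CCAAT box, bound by NF-Y, and TTTGAA, a form of the cell cycle genes homology region, are known elements of genes switched on before mitosis. Both motifs, searched on both strands in the 300 bases of each promoter, were present in 9 of 14 mitotic kinesins (64.3%), 1 of 14 axonal transport kinesins (7.14%, KIF5B), 0 of 8 ciliary and other kinesins and 6.08% of 27305 RefSeq promoters. CCAAT, with or without TTTGAA, was in 78.6, 21.4 and 37.5% of the mitotic, axonal transport and other kinesins and 35.7% of all promoters, and TTTGAA in 71.4, 7.14 and 0% and 15.4% of all promoters. The 120 bases upstream of the start are printed for 3 mitotic kinesins that rose (KIF11, KIF18A, KIF23) and the 2 that fell (KIF22, KIFC1), 5′ to 3′ on the gene's strand, with both motifs in capitals (ATTGG is CCAAT and TTCAAA is TTTGAA on the other strand). Positions in GRCh38.p14 are chr10:92593010-92593129 (plus strand), chr11:28108157-28108276 (minus), chr15:69414229-69414348 (plus), chr16:29790631-29790750 (plus) and chr6:33391703-33391822 (plus).
KIF11: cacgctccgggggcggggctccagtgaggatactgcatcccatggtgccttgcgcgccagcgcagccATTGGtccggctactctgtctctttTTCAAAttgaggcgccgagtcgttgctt
KIF18A: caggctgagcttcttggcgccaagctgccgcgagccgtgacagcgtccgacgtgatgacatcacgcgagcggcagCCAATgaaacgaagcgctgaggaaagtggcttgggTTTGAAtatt
KIF23: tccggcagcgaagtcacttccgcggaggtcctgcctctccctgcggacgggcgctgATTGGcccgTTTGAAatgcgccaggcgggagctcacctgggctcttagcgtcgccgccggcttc
KIF22: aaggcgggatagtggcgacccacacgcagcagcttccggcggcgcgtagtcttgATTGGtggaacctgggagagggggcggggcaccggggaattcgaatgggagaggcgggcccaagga
KIFC1: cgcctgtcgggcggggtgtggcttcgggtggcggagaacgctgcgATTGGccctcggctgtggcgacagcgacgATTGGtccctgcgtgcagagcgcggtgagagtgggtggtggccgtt
All 5 hold CCAAT. KIF11, KIF18A and KIF23 hold TTTGAA upstream of the start, KIFC1 holds it just downstream, and KIF22 had no TTTGAA in its 300 bases. Only the exact letters were searched, so variants of either motif were not counted. The printed KIF22 bases hold ttcgaa, which was not searched, so whether KIF22 lacks the element is not known. Matches of letters are not shown to be bound sites, and the factors were not measured.

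In the ciliary and other group, KIF26A (chr14:104136454-104180894), an atypical kinesin without ATPase activity, was the third most abundant kinesin of the controls. It fell from 11.4, 12.2 and 12.7 CPM to 4.29, 6.88 and 4.33 CPM (-1.23 ± 0.23 SE, adjusted p = 0.00844). KIF7, which acts in Hedgehog signalling at the tip of the cilium, fell from 2.77, 2.20 and 2.46 CPM to 1.08, 1.36 and 1.29 CPM (-0.99 ± 0.20 SE, adjusted p = 0.00927). KIF2A, a depolymerase that trims axon branches and works at spindle poles, rose from 1.69, 2.19 and 1.36 CPM to 5.52, 3.42 and 4.44 CPM (1.36 ± 0.26 SE, adjusted p = 0.00854). In these 3 genes the groups did not overlap, and on library totals alone KIF26A and KIF7 were at 0.11 and 0.36. KIF27, a relative of KIF7, was higher at a low level, 0.356, 0.198 and 0.112 CPM against 0.562, 0.559 and 0.689 CPM (1.41 ± 0.40 SE, adjusted p = 0.0229). KIFC3, a minus-end motor of epithelial junctions and Golgi positioning, was lower by a small margin, 4.81, 5.25 and 4.13 CPM against 3.60, 3.25 and 3.35 CPM (-0.47 ± 0.17 SE, adjusted p = 0.0461). On library totals alone its value was 0.91 and after removal of the GC trend 0.52, and that of KIF26B, which was not called in either fit, was 0.68 (adjusted p = 0.149). KIF26B took 16.9 ± 4.90% of the KIF26A and KIF26B counts in the controls and 31.0 ± 5.62% with Oligonol (SD, n = 3, no overlap). KIF26B is the less GC-rich of the pair, at 59.1% against 69.4%. KIF9 and KIF24 were not called, with log2 fold changes of 0.01 and -0.01.

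The order of levels changed between the groups. In the controls KIF1A (29.2 ± 3.61 CPM) led, followed by KIF22 (17.7 ± 1.65), KIF26A (12.1 ± 0.666), KLC2 (10.3 ± 1.01) and KLC1 (9.54 ± 0.245), of which KLC2 and KLC1 overlapped. With Oligonol the order was KIF1A (16.1 ± 2.70 CPM), KIF21A (13.9 ± 2.85), KLC1 (11.6 ± 1.13), KIF5C (8.35 ± 1.08) and KIF22 (7.91 ± 1.96), and each of these overlapped its neighbour except KLC1 and KIF5C.

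The 9 kinesins that were not tested were KIF2B, KIF4B, KIF6, KIF12, KIF17, KIF19, KIF21B, KIF25 and KLC3, none above 0.462 CPM in any library. KIF17, a motor of dendritic receptor transport, stood at 0.178, 0.239 and 0.196 CPM in the controls and 0.462, 0.330 and 0.380 CPM with Oligonol. KIF21B stood at 0.202, 0.153 and 0.248 CPM and 0.103, 0.150 and 0.0936 CPM. KIF2B was listed at 0 in all libraries but IR+Oligonol 1. KIF4B is a near copy of KIF4A, so that reads may be split between them, and both values are uncertain. The exons of 23 of the 46 members overlap another annotated gene, 21 of them one on the opposite strand, and the sources used here do not say whether strand was used in the counting.

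Of the adaptors that tie kinesins to cargo, 28 of 30 were tested, with 8 higher and 7 lower (28.6% and 25%, against 26.0% and 23.0% of all tested genes). RANBP2, a nuclear pore protein that also binds kinesin-1 heavy chains, stood at 0.910, 1.19 and 0.825 CPM in the controls and 4.38, 3.18 and 4.06 CPM with Oligonol (2.02 ± 0.23 SE, adjusted p = 0.00601). RANBP2 remained higher after removal of the GC trend, at 0.97 (adjusted p = 0.0242). In IR control 3 it lay under the cut of the count filter. It was therefore tested only through the IR+Oligonol libraries, in which it was high. SPAG9, a scaffold of kinesin light chains and kinases, rose from 3.64, 4.48 and 2.98 CPM to 10.1, 10.2 and 9.34 CPM (1.43 ± 0.20 SE, adjusted p = 0.0062). Of dynein and dynactin, the motor complex of the opposite direction, 29 of 30 genes were tested, with 8 higher and 4 lower (27.6% and 13.8%, against the same 26.0% and 23.0%). DYNC1I2, a dynein intermediate chain, rose from 1.95, 2.77 and 1.62 CPM to 6.15, 4.56 and 6.50 CPM (1.44 ± 0.25 SE, adjusted p = 0.00767), and CAPZA1, a capping protein in dynactin, from 1.69, 2.67 and 1.89 CPM to 6.83, 4.29 and 6.49 CPM (1.51 ± 0.26 SE, adjusted p = 0.00769). The medians of these lists were -0.03 and 0.42, against 0.15 for all tested genes.

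The 24 partners of mitotic kinesins were all tested, with 6 higher and 3 lower (25% and 12.5%, against 26.0% and 23.0% of all tested genes) and a median of 0.40. BUB1B, a spindle checkpoint kinase, rose from 1.26, 1.39 and 1.20 CPM to 3.60, 2.43 and 3.26 CPM (1.28 ± 0.21 SE, adjusted p = 0.00722), and ECT2, which starts the furrow with centralspindlin, from 1.13, 1.51 and 1.02 CPM to 4.29, 2.26 and 3.86 CPM (1.51 ± 0.29 SE, adjusted p = 0.00873). CENPE, a kinetochore kinesin with a name outside the KIF series, was not called and overlapped, at 0.743, 0.349 and 0.290 CPM and 1.44, 0.457 and 1.20 CPM (1.23 ± 0.51 SE, adjusted p = 0.0771). Of 10 proliferation markers 4 were higher and 2 lower (40% and 20%, against the same 26.0% and 23.0%). MKI67 stood at 2.94, 2.86 and 3.34 CPM in the controls and 5.46, 3.97 and 5.33 CPM with Oligonol (0.70 ± 0.19 SE, adjusted p = 0.0201) and TOP2A at 1.93, 3.60 and 1.93 CPM and 5.46, 5.04 and 5.38 CPM (1.10 ± 0.26 SE, adjusted p = 0.0133). The 10 markers summed to 119.2, 141.2 and 143.0 CPM in the controls and 92.4, 115.9 and 96.7 CPM with Oligonol, so that the sum was lower while MKI67 and TOP2A rose. The 2 lower markers, MCM5 (-0.95) and MCM7 (-0.84), had the highest levels of the list in the controls (named after their values were seen). After removal of the GC trend HMMR among the partners (-1.07, adjusted p = 0.0428) and PCNA among the markers (-0.83, adjusted p = 0.0324) were lower (both named after their values were seen), and no other gene of these lists was called in that fit but RANBP2.

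**Figure D5:**
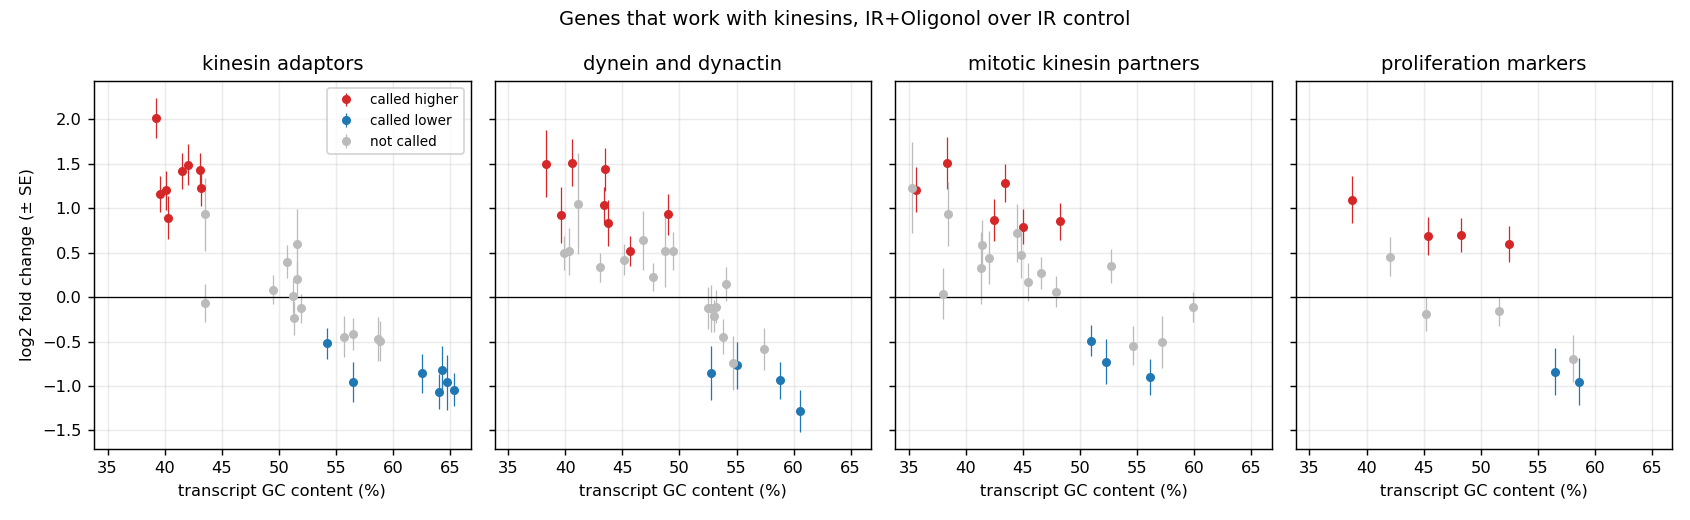
Log2 fold change (± SE) of tested kinesin adaptors, dynein and dynactin genes, mitotic kinesin partners and proliferation markers against transcript GC content (%), coloured by call. In each panel the genes called higher lie at lower GC than those called lower.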

How the data were processed

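The 6 SH-SY5Y libraries came from a kit for total RNA that keeps strand, with paired reads (labels' protocols). GRCh38.p13, kallisto 0.46.1, FastQC and edgeR are named, without role or order, in the submitters' processing notes. The authors deposited 2 columns a library, estimated counts and a signal. Within a library the deposited signal is a fixed multiple of the estimated counts, and it was not used further. For low genes with 1 transcript, the deposited estimated counts were rescaled by effective length and a fitted scale. Of the rescaled values 70.4 to 73.4% lay within 0.05 of a whole read, so the counts behave as abundances per length. Fragment length and scale were chosen in each library to make this share large, so the share is not an independent check.

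Estimated counts were rounded, filtered by filterByExpr, scaled by TMM and tested with the robust quasi-likelihood test of edgeR 4.0.16 in R 4.3.3 (16574 genes, 2-sided, Benjamini-Hochberg adjusted p under 0.05). Transcript GC content is the median over a gene's transcripts in GENCODE 29, which may not be the authors' release, and 97.7% of tested genes had one. The GC trend was removed in each library as an offset, a spline with 5 degrees of freedom. Alternatives were other scalings, filters and thresholds, limma 3.58.1 (voom), DESeq2 1.42.0, a replicate block and each library left out. The tests were tested on simulated data. Promoters are RefSeq's (GRCh38.p14, 36 of 46 members matched). No member but KIF2B had the values of another gene.

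The members, roles and gene lists were chosen with earlier results of these data known. Values in every library are given for called members (at most the 12 smallest p in a role), the 3 most abundant in the controls and 14 members named by the design. Of each other list, the 2 tested genes of smallest p are named, with CENPE and MKI67.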

Additional observations from a re-analysis of the deposited data

How the results depend on the processing

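The direction of the 26 calls under TMM scaling held under limma-voom, DESeq2 and the RLE and upper-quartile scalings, but the counts did not. DESeq2 called 9 kinesins higher (5 axonal transport, 3 mitotic), with an axonal transport median of 0.22. Of all 16574 genes it called 3144 higher, against 4304 in the main test. RLE scaling called 5 axonal transport kinesins higher, with a median of 0.22, and 3976 of all 16574 genes higher. Upper-quartile scaling gave medians of 0.38 for axonal transport and 0.02 for the ciliary and other kinesins. With protein-coding genes only the axonal transport median was 0.34, and with read equivalents 0.16. Without the filter 9 were higher (5 axonal transport, 3 mitotic) and 1 mitotic kinesin lower, with an axonal transport median of 0.24. Of all 42070 genes in that fit 2964 were higher and 1603 lower. With at least 10 counts in all libraries 2 mitotic kinesins were higher and 1 lower, with medians of 0.49 for axonal transport and 0.18 for mitotic kinesins. At an adjusted p under 0.01, 3 kinesins were higher (2 axonal transport, 0 mitotic) and 4 lower (1 and 1). At that threshold 1401 of all 16574 genes were higher and 779 lower. On library totals alone 30 were higher (13 axonal transport, 11 mitotic) and 0 lower in either role, with medians of 1.69, 1.95 and 1.31.

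With the GC trend removed 0 kinesins were called in either direction, and the axonal transport, mitotic and other medians were 0.15, 0.01 and 0.25. With the GC of the longest transcript 2 were higher, both of axonal transport, 0 mitotic and 0 lower, with medians of 0.16 for mitotic and 0.20 for other kinesins.

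Signs changed mostly under these 2 kinds of setting. With the GC trend removed the log2 fold change was 0.19 for KIF3C, -0.17 for KIF4A, -0.02 for KIF14, 0.04 for KIF1A, 0.52 for KIFC3, -0.03 for KIF2C, 0.68 for KIF26B, 0.01 for KIF7, 0.00 for KIF5B, 0.04 for KLC2, 0.42 for KIF18B and -0.31 for KIF13B. With the GC of the longest transcript it was 0.22 for KIF3C, -0.14 for KIF4A, 0.06 for KIF1A, 0.56 for KIFC3, 0.16 for KIF26B, 0.01 for KIF7, 0.33 for KIF18B and 0.05 for KIFC1. On library totals alone it was 0.11 for KIF26A, 0.18 for KIF22, 1.03 for KIF3C, 1.19 for KIF20A, 0.44 for KIF1C, 0.50 for KIF1A, 0.47 for KLC4, 0.91 for KIFC3, 1.17 for KIF5A, 1.21 for KIF26B, 0.36 for KIF7, 0.40 for KLC2, 0.89 for KIF18B, 1.41 for KIF24 and 0.66 for KIFC1. Of members not called, KIF9 was -0.06 under RLE scaling and DESeq2 and -0.07 with read equivalents. KIF2C was 0.00 under RLE scaling and -0.02 with read equivalents. KIF24 was 0.08 under upper-quartile scaling and 0.05 with protein-coding genes only. With at least 10 counts KIF20A was 0.04, KIF5A 0.05 and KIF26B 0.12. Apart from the removal of the trend, the rescaling and the smaller sets of genes themselves, the cause of these changes was not tested.

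The values gave no sign of a pairing by replicate number. Deviations of same-numbered libraries from their group means correlated at 0.111, -0.008 and -0.177, and not every library correlated best with its own number. With 3 libraries a group, these correlations cannot settle whether the libraries were paired. With a replicate block 12 kinesins were higher and 9 lower, against 3560 and 3470 of all 16574 genes, and KIF24 was 0.01. With the block and the GC trend removed 0 of all 16200 genes were called in either direction. The 0 kinesins higher and 0 lower in that fit therefore say nothing particular to kinesins. The medians of the roles were 0.15, 0.01 and 0.27. The block and GC removal together gave 0.18 for KIF3C, -0.17 for KIF4A, -0.02 for KIF14, 0.04 for KIF1A, 0.50 for KIFC3, -0.03 for KIF2C, 0.70 for KIF26B, 0.01 for KIF7, 0.04 for KLC2, 0.43 for KIF18B and -0.29 for KIF13B.

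Over the 12 fits that left out 1 library each, 6 of them with the GC trend removed, kinesins higher ranged from 0 to 11 (axonal transport 0 to 5, mitotic 0 to 5) and lower from 0 to 12 (0 to 6 and 0 to 3). The medians ranged from 0.07 to 0.46 for axonal transport, from -0.04 to 0.59 for mitotic and from -0.31 to 0.36 for other kinesins. In the same fits the log2 fold change ranged from -0.62 to 0.25 for KIF3C, -0.32 to 0.27 for KIF9, -0.31 to 0.29 for KIF4A, -0.05 to 1.20 for KIF14, -0.05 to 0.97 for KIF23, -0.65 to 0.68 for KIFC3, -0.11 to 0.10 for KIF2C, -0.44 to 0.01 for KIF5A, -0.39 to 0.93 for KIF26B, -1.25 to 0.11 for KIF7, -0.10 to 1.09 for KIF5B, -1.26 to 0.10 for KLC2, -0.77 to 0.54 for KIF18B, -0.49 to 0.37 for KIF13B, -1.20 to 0.10 for KIF1A and -0.38 to 0.12 for KIF24. With the trend removed, the fits without IR control 2, IR control 3, IR+Oligonol 1 and IR+Oligonol 3 called 0 of all genes tested. The 0 kinesins called in those fits therefore say nothing particular to kinesins. With the trend removed and IR+Oligonol 2 left out, KLC1 was called higher (0.62, adjusted p = 0.0498 in edgeR's test). Of all 19755 genes in that fit 239 were higher and 252 lower. In the other fits that left out 1 library with the trend removed, the adjusted p of KLC1 was 0.107 to 0.213. With 3 libraries a group, an exact permutation test of a single value cannot go below p = 0.1.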

Other observations

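Against protein-coding genes in the same bin of GC content, 25 of the 37 tested kinesins lay between the lower and upper quartile of log2 fold changes, 7 above it and 5 below it.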
